A study of Arabidopsis thaliana with 9 samples.

Results

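Polysomal RNA from pollinated flowers was compared with polysomal RNA from cultured pollen tubes in Arabidopsis thaliana, on 6 of the study's 9 GeneChip arrays. The arrays were chosen by their labels alone, 3 titled in vivo and 3 titled in vitro. All plants carried the LAT52-HF-RPL18 transgene, in which a pollen promoter, ProLAT52, drives an epitope-tagged ribosomal protein L18, and all grew in a chamber kept at 22 °C, lit for 18 h and dark for 6 h a day. The in vivo flowers were self-pollinated and at floral stage 14, and their tissue is labelled pollen tube. The in vitro samples were pollen tubes grown in culture, with no flower tissue named. The remaining 3 arrays, titled bud, are labelled flower buds of stages 11 to 12 of the same transgenic line, while the series design names unpollinated styles for them, so what tissue their values describe is not settled here. The bud arrays entered the fit to estimate the spread and are otherwise given only for orientation. In each case polysomes were taken from a sucrose gradient, tagged ribosomes were captured with FLAG beads, and their mRNA was amplified before hybridization.

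A pollen tube is a single elongating cell that carries the sperm cells through the pistil to an ovule. It grows at its tip, where secreted pectin, wall-loosening proteins and vesicle traffic along actin build new wall, while receptor kinases at the surface and small RALF peptides keep that wall intact. On the flower the tube runs inside female tissue, whereas in culture it grows alone.

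Of 22746 probe sets tested, 13495 (59.3%) differed between the in vivo and in vitro arrays at an adjusted p under 0.05 in limma. Of these, 8953 (39.4% of all) were higher in vivo and 4542 (20.0% of all) were lower in vivo. After quantile normalization 12833 (56.4%) passed, of which 5986 (26.3%) were higher and 6847 (30.1%) were lower, so the share of calls that were higher moved to 46.6%, against 66.3% on the deposited scale. With equal array medians that share was 39.2%. The median log2 fold over all probe sets, in vivo minus in vitro, was 0.36, -0.26 after quantile normalization and -0.67 with equal medians. Directions of small differences therefore depend on the scale. Equal medians gave calls to 67.8% of probe sets, 6037 higher and 9382 (41.2% of all) lower. Unless another scale is named, values and counts are on the deposited scale, and list counts are read against its 39.4% higher and 20.0% lower. The differences were often very large: 897 probe sets exceeded a log2 fold of 5 in the higher direction and 292 in the lower one. In 14439 probe sets (63.5%) the in vivo and in vitro arrays did not overlap, so lack of overlap alone does not set a gene apart.

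The arrays of the 2 groups distribute their signal unequally. The brightest 1% of probe sets held 17.8%, 26.0% and 26.3% of all signal on the in vivo arrays, against 44.8%, 46.3% and 64.1% on the in vitro arrays. The median signal was 187, 174 and 187 in vivo and 69.6, 68.6 and 112 in vitro. In vitro array 3 stood apart from its 2 replicates in the share of signal, in its median and in control probe sets with a median of 67541, against 1436 to 14191 on the other 8 arrays. Leaving it out gave 14045 calls, 9545 higher and 4500 lower. Over all probe sets, 8711 of the 8953 higher calls and 4084 of the 4542 lower calls were kept. Of 186 genes chosen by the naming rule 175 kept both sign and call. Most of these were chosen for large differences on the same arrays, so that count says little about other genes. Correlations between arrays within a group were 0.947 to 0.970 in vivo and 0.859 to 0.933 in vitro, and 0.351 to 0.472 between the groups. Exact permutation of 3 arrays against 3 cannot give a p below 0.1, so calls rest on the fit across all probe sets.

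Markers of green tissue and of the pistil were mostly higher in vivo. The floral organ and tapetum lists did not share that direction, and several of their members were dim in both groups. Of 6 floral organ genes 2 were higher and 2 lower, and of 5 tapetum genes 1 was higher and none lower. Of 8 female gametophyte genes 4 were higher (50.0%, against 39.4% of all probe sets) and none lower, and 3 and 2 after quantile normalization. All 10 measured photosynthesis genes were higher in vivo, and their summed signal was 66039 to 101698 on the in vivo arrays, against 631 to 1120.4 on the in vitro arrays. Of 10 pistil genes 6 were higher (60%, against 39.4% of all probe sets), and 4 after quantile normalization. Their summed signal was 4116 to 5539 in vivo and 405 to 1174 in vitro. The list median was 240 in vivo and 73.6 in vitro, so a few bright genes weighed heavily in the sum. The brightest, FER, averaged 1844 in vivo and 1811 on the bud arrays. The 7 measured receptor genes of the pollen tube ran the opposite way, at 2921 to 6524 in vivo, against 174366 to 181653 in vitro. A signal above 0 does not show that a marker is present, as the lowest mean of any probe set was 0.61 in vivo and 2.37 in vitro. The part of other flower cells in the lower pollen gene signals in vivo was not tested.

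**Figure D1:**
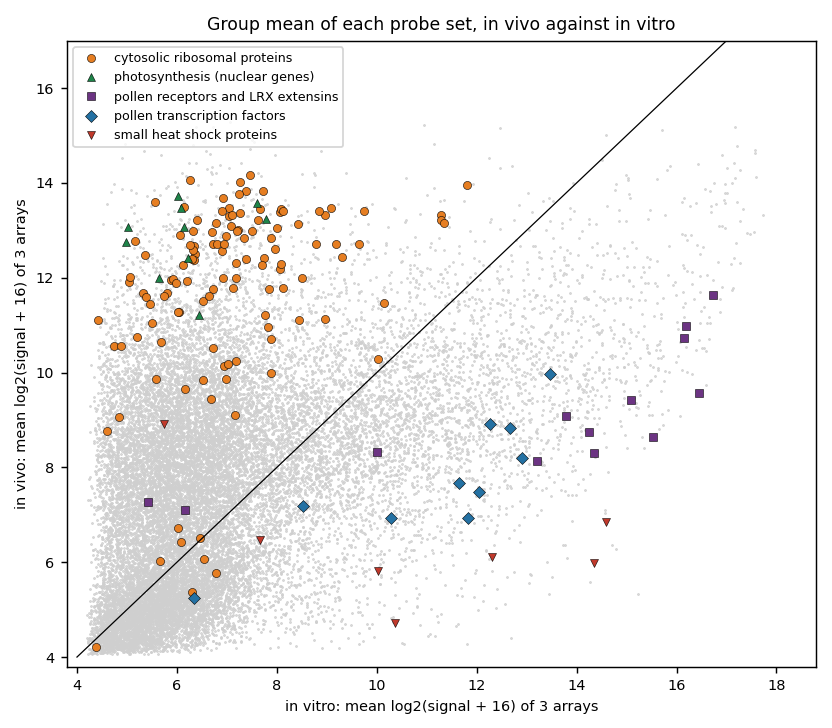
Mean log2(signal + 16) of each probe set over the 3 in vivo arrays (vertical) against the 3 in vitro arrays (horizontal), with 5 gene groups marked and a line of equal values. Most cytosolic ribosomal protein genes and all photosynthesis genes lie above the line, with median log2 folds of 5.23 and 6.64. Pollen receptors, drawn as 1 group with the LRX extensins, and most small heat shock proteins lie below it. The medians were -5.40 for the receptors alone and -5.67 for the small heat shock proteins. LRX4, at 1.86, and HSP15.4, at 3.18, lie above the line.

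The surface receptors of the pollen tube were all lower on the in vivo arrays. ANX1, ANX2, BUPS1 (AT4G39110) and BUPS2 (AT2G21480) are receptor kinases that hold the growing tube intact, MRI (AT2G41970) is a cytoplasmic kinase that acts after ANX1 and ANX2, MDIS1 (AT5G45840) takes part in sensing an ovule attractant and PRK8 (AT1G72460) is a pollen receptor-like kinase. Names followed by a locus here and below are the published gene names of loci that the annotation lists by code only. BUPS1 had signals of 1645, 1184 and 2487 in vivo, against 59578, 64045 and 98758 in vitro. Its log2 fold was -5.40 ± 0.39 (SE, adjusted p = 6.38e-07), and the groups were far apart on every array. MDIS1 showed 301, 148 and 585 in vivo and 26025, 18093 and 18874 in vitro, a fall of 6.04 ± 0.44 on the log2 scale (SE, adjusted p = 7.19e-07). PRK8 was the mildest of the group, with 276, 199 and 500.3 in vivo against 1355, 909 and 823 in vitro and a log2 fold of -1.68 ± 0.41 (SE, adjusted p = 0.00392). The in vivo mean of the 6 others was 1.64% to 3.85% of the in vitro mean, and that of PRK8 was 31.6%. All 7 measured members of the list, of 29 listed, were lower, against 20.0% of all probe sets, and all 7 were lower after quantile normalization too. In bulk samples of this kind, fewer pollen tube cells and less RNA in each of them cannot be told apart.

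The leucine-rich repeat extensins, wall proteins that bind RALF peptides, split by member. LRX8 (AT3G19020), LRX9 (AT1G49490), LRX10 (AT2G15880) and LRX11 (AT4G33970), the pollen members, were lower in vivo. LRX10 had 451, 406 and 2184 in vivo, against 71262, 75505 and 135503 in vitro, and LRX11 had 286, 243 and 785 against 65516, 30711 and 52639.6. The groups did not overlap, as in 63.5% of all probe sets. The log2 folds were -6.89 ± 0.67 for LRX10 (SE, adjusted p = 4.69e-06) and -6.90 ± 0.52 for LRX11 (SE, adjusted p = 8.37e-07). LRX4 (AT3G24480), a member of vegetative tissue, ran the other way with 160.0, 143 and 118 in vivo against 23.3, 21.1 and 37.5 in vitro and rose by 1.86 ± 0.32 (SE, adjusted p = 0.000392). LRX5 (AT4G18670) averaged 124 in vivo and 64.3 in vitro and did not pass (adjusted p = 0.0993).

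RALF peptides, secreted signals read by receptors of the ANX and FER family, showed the same kind of split. RALFL25 and RALFL26, both bright in the cultured tubes, were lower in vivo. RALFL26 had 4012, 4895 and 6453 in vivo, against 86761, 99303 and 321220.0 in vitro, and its log2 fold was -4.80 ± 0.62 (SE, adjusted p = 4.09e-05). RALFL25 had 8322, 14597 and 15284 in vivo, against 55423, 57144 and 110155 in vitro, and its fall of 2.52 (adjusted p = 0.000567) was -0.47 with an adjusted p of 0.396 after quantile normalization. In both genes the in vitro array 3 was the brightest of all 6. Another set of RALF genes was bright in vivo and close to the bottom of the scale in vitro. RALFL34, a ligand of the receptor kinase THESEUS1, had 4637, 3749.9 and 6029.8 in vivo against 74.1, 26.2 and 13.5 in vitro, a rise of 6.62 ± 0.42 (SE, adjusted p = 3.75e-07). RALFL33 had 5201, 4893 and 3495 in vivo and 97.9, 15.1 and 13.6 in vitro. RALFL32, RALFL24 and RALFL31 also rose, with in vivo means of 2017, 1262 and 617 and in vitro means of 17.9, 6.09 and 9.90. Of 10 measured RALF genes 6 rose and 2 fell, and 5 and 1 after quantile normalization. RALFL18, the sixth of those higher, lost its call under quantile normalization (adjusted p = 0.931).

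Enzymes that remodel pectin, the main material of the tube tip, were mostly lower in vivo. All 7 measured pectate lyases and polygalacturonases fell, with a median log2 fold of -3.78. The pectate lyase AT59 had 1369.6, 953 and 1510.1 in vivo, against 53173, 42284 and 58276 in vitro, a fall of 5.32 ± 0.38 (SE, adjusted p = 6.38e-07). Of 12 pectin methylesterase and inhibitor genes 7 fell and 1 rose, and 11 fell with equal medians. AT2G26450, of the pectin methylesterase list, had 1018, 629.7 and 1628 in vivo, against 72969, 72686 and 80762 in vitro, and a log2 fold of -6.19 ± 0.45 (SE, adjusted p = 7.1e-07). A methylesterase gene whose groups overlapped was AT5G07420, with 6353, 10306 and 22442 in vivo, against 13769, 17387 and 13831 in vitro. Its log2 fold of -0.39 did not pass (adjusted p = 0.517) and was 0.96 after quantile normalization. Its neighbour in locus number, AT5G07430, fell by 5.12 (adjusted p = 2.33e-06), with means of 3745 in vivo and 130579 in vitro.

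Expansins, which loosen cell walls without cutting them, held members with opposite and very large differences. EXPA4 had 1644, 1709 and 1519.9 in vivo, against 62633, 78098 and 150105 in vitro, and fell by 5.78 ± 0.37 (SE, adjusted p = 3.77e-07). EXPA8 had 6649, 10775 and 6604 in vivo, against 3.67, 27.3 and 65.5 in vitro, and rose by 7.57 ± 0.49 (SE, adjusted p = 4.08e-07). The groups do not overlap in either gene, as in 63.5% of all probe sets. EXPB5 and EXPA16 fell with EXPA4, at log2 folds of -4.08 and -4.48, and EXLA1 rose with EXPA8, at 6.68. Of 19 expansins 9 rose (47.4%, against 39.4% of all probe sets) and 6 fell (31.6%, against 20.0%), and 7 and 8 after quantile normalization, with a median of 0.87 that turned to -0.16 under quantile normalization and -0.15 with equal medians.

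Glucanases and xyloglucan enzymes also divided within the family. GH9B6, an endoglucanase of the GH9 family, was near the bottom of the scale in vivo with 4.62, 5.10 and 7.71, against 1862, 2042 and 2291 in vitro, and fell by 6.57 ± 0.29 (SE, adjusted p = 9e-08). GH9B13 averaged 4689 in vivo and 67.4 in vitro, and rose by 5.86 (adjusted p = 4.28e-07). Over the 37 BGLU and GH9 genes 10 rose and 9 fell (27.0% and 24.3%, against 39.4% and 20.0% of all probe sets), and the median of 0.20 turned to -0.36 under quantile normalization and -0.83 with equal medians. Among 10 xyloglucan endotransglucosylases, which cut and rejoin wall xyloglucan, 6 rose and XTH29 fell, and 4 rose after quantile normalization. EXGT-A3 averaged 1713 ± 209 in vivo and 76.7 ± 16.8 in vitro (SD, n = 3 each), and XTH29 185 ± 54.1 and 2034 ± 368.

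**Figure D2:**
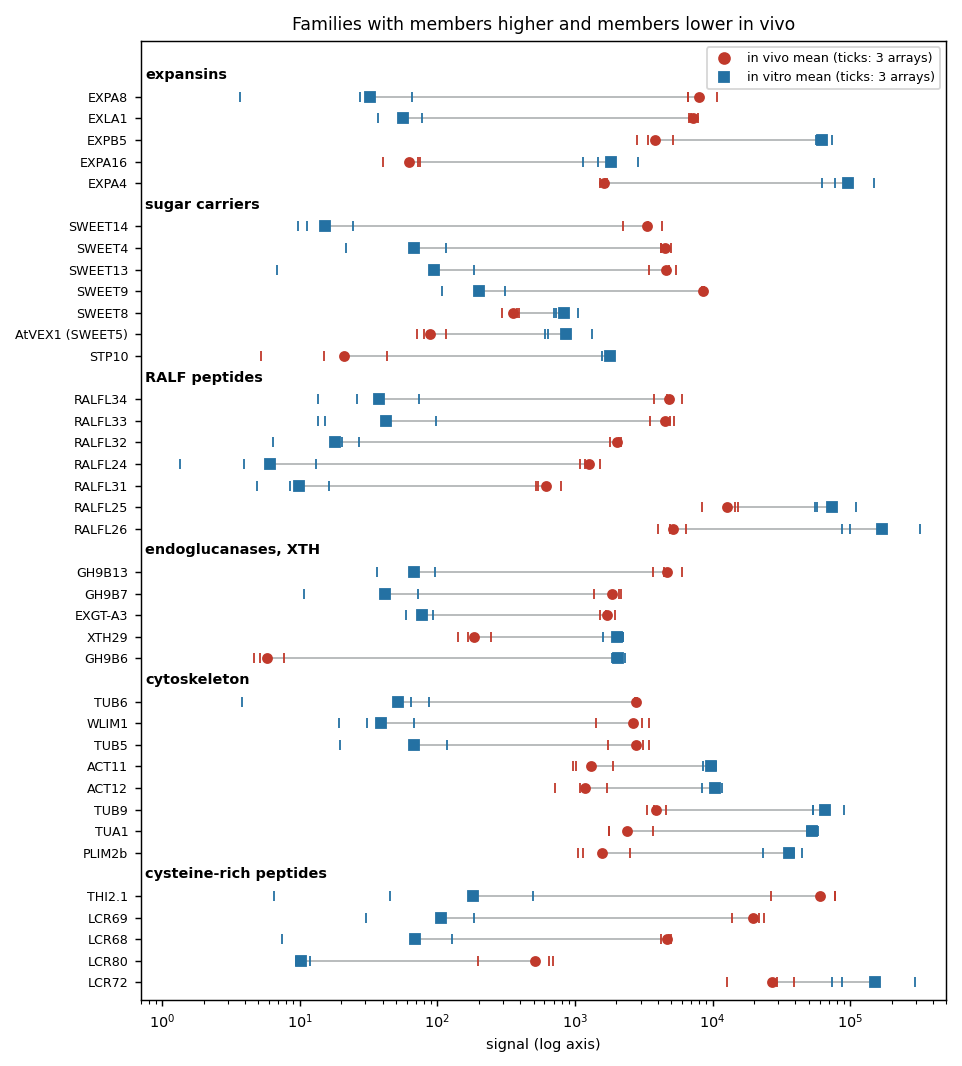
Signal (log axis) of members of 6 gene families, circles for the in vivo mean and squares for the in vitro mean, with ticks for the 3 arrays of each group. EXPA8 averaged 8009 in vivo and 32.2 in vitro, while EXPA4 averaged 1624 in vivo and 96945 in vitro, and each family shown has members on both sides.

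The cytoskeleton list ran both ways. Of 29 measured genes 14 fell (48.3%, against 20.0% of all probe sets) and 10 rose (34.5%, against 39.4%), and 17 fell and 6 rose with equal medians. PLIM2b, a LIM protein that bundles actin in pollen, had 1139, 1049.5 and 2523 in vivo, against 23399.7, 38990.5 and 44895 in vitro, a fall of 4.56 ± 0.45 (SE, adjusted p = 5.26e-06). WLIM1, its relative of other tissues, averaged 2645 in vivo and 39.2 in vitro and rose by 5.59 (adjusted p = 1.48e-06). TUA1 and TUB9, tubulins, averaged 2400.0 and 3892 in vivo, against 52932 and 66023 in vitro, and both fell. TUB6, another beta tubulin, averaged 2763 in vivo and 51.7 in vitro and rose by 5.67 (adjusted p = 3.5e-06). The pollen actins ACT11 and ACT12 fell by 2.96 and 3.20 (adjusted p = 1.92e-05 and 2.63e-05). The actin-binding protein gene NET2C and the myosin genes XIE and XIJ fell by 4.71, 4.65 and 4.46. PLIM2a fell by 3.39 (adjusted p = 0.000156), a call lost under quantile normalization (adjusted p = 0.0558).

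In the secretory list 7 of 14 genes fell and 3 rose, of which 1 rose after quantile normalization and 0 with equal medians. The 2 largest falls were SEC1B and KEU, both SEC1-type regulators of membrane fusion. KEU averaged 632 ± 77.7 in vivo and 6132 ± 1300.4 in vitro (SD, n = 3 each), with a log2 fold of -3.23 (adjusted p = 5.48e-06). In the exocyst, which tethers vesicles before fusion, SEC15A averaged 143 in vivo and 370.3 in vitro and fell, while SEC15B averaged 441 and 141 and rose (adjusted p = 0.00471 and 0.00281). The call of SEC15B was lost under quantile normalization (log2 fold 0.30, adjusted p = 0.423) and with equal medians (0.58, adjusted p = 0.141). PIPK11, a phosphatidylinositol phosphate kinase of the pollen tube, had 390.3, 271 and 852 in vivo, against 27919.9, 29776 and 33004 in vitro, and fell by 6.02 ± 0.53 (SE, adjusted p = 2.49e-06).

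Of the ion carriers, CHX19, CHX15 and CHX21, cation and proton exchangers, were lower in vivo. CHX19 had 9.01, 4.10 and 40.1 in vivo, against 1893, 1761 and 1415 in vitro, and fell by 5.80 ± 0.45 (SE, adjusted p = 9.96e-07). The glutamate receptor-like channel gene GLR3.3 averaged 266 in vivo and 25.6 in vitro and rose by 2.90 (adjusted p = 0.000174). Of the 13 measured genes of that list 5 fell and 1 rose.

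Of 17 measured sugar carriers 11 were higher in vivo and 3 lower, and 8 and 5 after quantile normalization. SWEET9, the sucrose exporter of nectaries, had 8439.5, 8636 and 8588 in vivo, against 189, 108 and 309 in vitro, a rise of 5.41 ± 0.48 (SE, adjusted p = 2.36e-06). The bud arrays gave 633, 648 and 213 for the same gene. SWEET14, SWEET13 and SWEET4 averaged 3309, 4567 and 4471 in vivo, against 15.1, 93.8 and 68.0 in vitro. The opposite order held for STP10 (AT3G19940), a hexose importer of the pollen tube, with 14.9, 5.19 and 43.2 in vivo against 1561, 1934 and 1873 in vitro and a log2 fold of -5.73 ± 0.39 (SE, adjusted p = 4.61e-07). AtVEX1, listed also as SWEET5, and SWEET8 were the other carriers that fell, by 2.99 and 1.18.

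Of 10 measured transcription factors of pollen 9 fell, with a median log2 fold of -3.67. AGL30, AGL65, AGL66, AGL94 and AGL104 belong to the MIKC* class of MADS proteins that act in late pollen. AGL65 had 107, 149 and 262 in vivo, against 3849.8, 4328 and 4438 in vitro, a fall of 4.57 ± 0.36 (SE, adjusted p = 1.09e-06). BZIP18, a leucine zipper factor, averaged 293 ± 106 in vivo and 7771 ± 1717 in vitro (SD, n = 3 each) and fell by 4.70 (adjusted p = 1.38e-06). AGL94 alone did not pass (log2 fold -1.09, adjusted p = 0.178), with means of 30.1 in vivo and 88.0 in vitro. bZIP52 was the mildest of those called, at -1.35.

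Sperm cell genes were lower in vivo. MGH3, the sperm histone also called HTR10, had 216, 197 and 320.3 in vivo, against 3443, 4448 and 5580.2 in vitro, and fell by 4.11 ± 0.41 (SE, adjusted p = 6.22e-06). TET11, a tetraspanin of sperm, averaged 39.4 in vivo and 855 in vitro. TET12 was dim, with 3.72, 33.7 and 3.86 in vivo against 265, 155 and 20.0 in vitro, and its groups overlapped (adjusted p = 0.0149). All 3 measured sperm genes, of 17 listed, fell, against 20.0% of all probe sets. The other 4 histone genes of the histone list rose, among them the H2B gene HTB2, with a mean of 2687 in vivo and 151 in vitro. Only 2 of the 4 were higher under quantile normalization and with equal medians, and HTR12, the centromeric H3 variant, lost its call under both (adjusted p = 0.0703 and 0.102).

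All 4 measured cell cycle genes and 6 of 9 chromatin remodelling genes were lower in vivo. The Aurora kinases AUR1, AUR2 and AUR3, which phosphorylate histone H3 at mitosis, averaged 1307, 975 and 173 in vivo, against 15303, 15032 and 995 in vitro. AUR1 had 969, 1329 and 1624 in vivo and 11883, 18157 and 15869 in vitro, and its log2 fold was -3.54 ± 0.33 (SE, adjusted p = 3.53e-06). PRL, a subunit of the replicative helicase, fell by 1.71 (adjusted p = 0.0029). The chromatin genes that fell were led by the ISWI-type CHR17 at -4.04 and ATRX at -3.29, and the 3 others were not called (1 of them rose without in vitro array 3).

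Small heat shock proteins gave the lowest median among the lists with more than 1 measured gene, -5.67, with 6 of 7 genes lower in vivo. HSP17.6C (AT1G53540), a cytosolic chaperone that holds unfolded proteins, had 110.3, 20.9 and 39.5 in vivo, against 18309.9, 25067 and 19864 in vitro, and fell by 8.36 ± 0.54 (SE, adjusted p = 4.08e-07). HSP17.6B (AT2G29500) averaged 112 ± 67.4 in vivo and 25147 ± 7405 in vitro (SD, n = 3 each). The in vivo mean of these 2 genes was 0.27% and 0.446% of the in vitro mean, below the 1.64% of the lowest receptor gene, a difference between genes that was not tested. Shares this low were not particular to small heat shock genes, with GH9B6 at 0.281% and AT1G76640 at 0.288%. HSP26.5 (AT1G52560) and HSP23.5 (AT5G51440) fell by 5.67 and 4.22, and HSP15.7 (AT5G37670) fell with means of 76.5 in vivo and 196 in vitro (adjusted p = 0.0279). HSP15.4 (AT4G21870) was the exception, with 486, 423 and 495 in vivo against 107, 33.5 and 8.86 in vitro and a rise of 3.18 ± 0.49 (SE, adjusted p = 0.000168). ROF2, an immunophilin that binds HSP90 in the heat response, averaged 194 in vivo and 13952 in vitro, a fall of 6.25 (adjusted p = 2.05e-06).

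Stress genes of other kinds did not follow one direction, with 3 of 6 touch and wound genes higher and 3 lower, and a median of 0.56 that turned to -0.50 under quantile normalization. AT1G76640, listed as CML39, a calmodulin-like protein, had 76.7, 24.9 and 129.6 in vivo, against 28029, 23023 and 29162 in vitro, and fell by 8.34 ± 0.49 (SE, adjusted p = 2.51e-07). The next locus, CML38, a related calcium sensor, averaged 1089.5 in vivo and 146 in vitro and rose by 2.66 (adjusted p = 0.00166), a call lost under quantile normalization (adjusted p = 0.0687). The ubiquitin ligase gene PUB23 fell by 3.79 (adjusted p = 2.32e-06), and the transcription factor genes STZ and WRKY53 rose by 4.52 and 3.88 (adjusted p = 6e-06 and 2.41e-06). Of 11 autophagy genes 2 rose, 2 fell and 7 were not called, so 36.4% were called, against 59.3% of all probe sets. After quantile normalization 1 rose and 4 fell. In that list ATG8H averaged 1724 in vivo and 16376 in vitro, whereas ATG8F, another of the ATG8 proteins that build the autophagosome membrane, averaged 3192 and 108. Of 5 measured endoplasmic reticulum genes 3 rose and 1 fell. The calreticulin gene CRT1b rose by 5.86 (adjusted p = 6.98e-06) and the stress sensor gene BZIP28 fell by 1.61 (adjusted p = 0.00224).

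**Figure D3:**
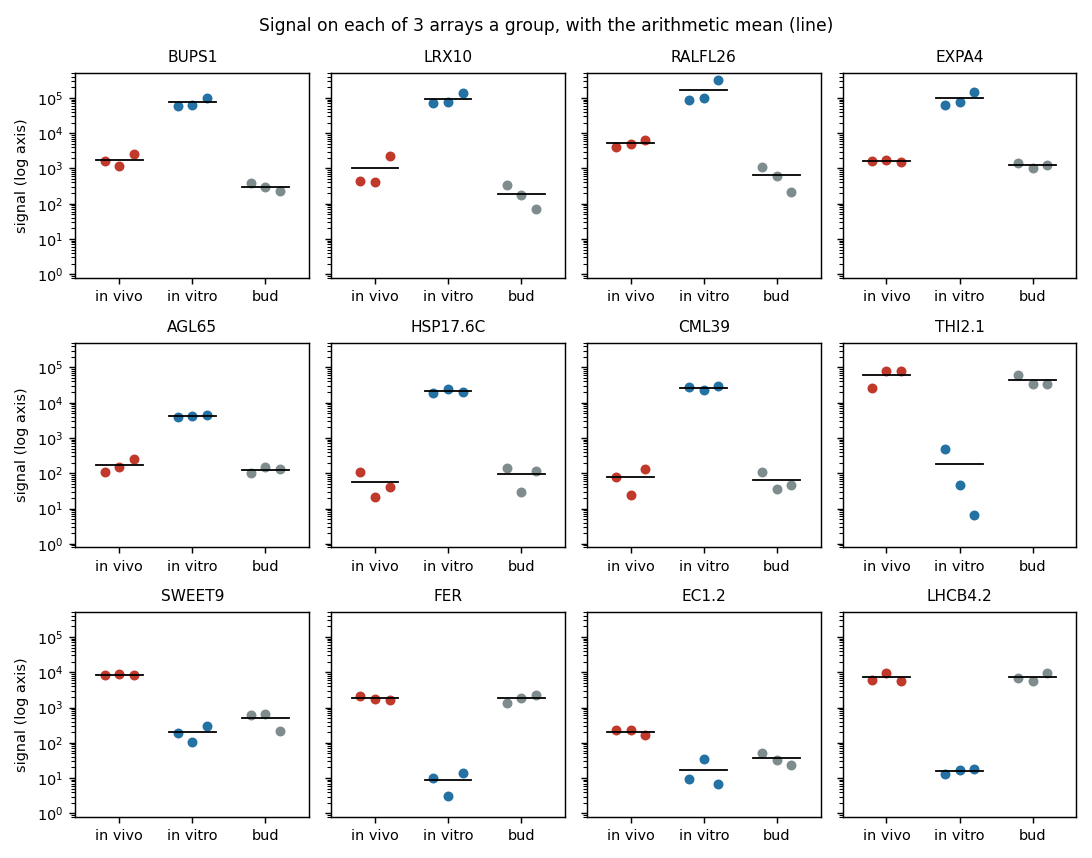
Signal (log axis) of 12 genes on the 3 arrays of each group, in vivo, in vitro and bud, with the arithmetic mean as a line. From BUPS1 to CML39 the in vitro arrays are highest, and from THI2.1 to LHCB4.2 the in vivo arrays lie above the in vitro ones, with SWEET9 at 8555 in vivo, 202 in vitro and 498 in bud.

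The largest one-sided group among the genes higher in vivo was that of the cytosolic ribosomal proteins. Of 121 measured genes 112 rose and none fell (1 fell without in vitro array 3), against 39.4% of all probe sets higher, with a median log2 fold of 5.23. The median signal of the list was 4497, 5376 and 5349 on the in vivo arrays, against 129, 98.9 and 145 on the in vitro arrays. AT5G20290, a gene of that list, had 12492, 20130.3 and 19732 in vivo, against 177, 38.8 and 27.0 in vitro, and rose by 7.79 ± 0.51 (SE, adjusted p = 4.08e-07). After quantile normalization 111 were higher and 2 lower. The 9 genes not called included 8 that were dim in both groups and AT2G45710, with 1313, 1045 and 1389 in vivo and 742, 1097 and 1343 in vitro. Its in vivo and in vitro signals overlapped, and its log2 fold was 0.26 (adjusted p = 0.562). Of the genes of ribosomal protein L18, the protein that is tagged in these plants, AT5G27850 rose by 6.26 (adjusted p = 1.98e-07) and AT2G47570 was not called (log2 fold -0.47, adjusted p = 0.467). A further L18 gene had no probe set assigned to it alone and is not described.

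Green tissue genes were one-sided too. All 10 nuclear photosynthesis genes rose, with log2 folds of 4.78 to 8.05. LHCB4.2, an antenna protein of photosystem II, had 6204, 9335 and 5761 in vivo, against 13.0, 16.5 and 17.8 in vitro, a rise of 7.78 ± 0.33 (SE, adjusted p = 8.51e-08). RCA, the activase of Rubisco, averaged 12421 ± 2463 in vivo and 184 ± 59.3 in vitro (SD, n = 3 each). Of 69 probe sets for genes of the plastid genome 62 rose and none fell, with a median log2 fold of 4.09. Ribosomal protein gene rps4 of the plastid had 8391, 13867 and 5758 in vivo, against 165, 18.5 and 7.45 in vitro, and rose by 7.38 (adjusted p = 2.6e-06). Of 23 probe sets of the mitochondrial genome 2 were higher and 2 lower (1 lower without in vitro array 3), with a median of -0.06. None was higher and 6 were lower after quantile normalization, at a median of -0.43, and none and 11 with equal medians, at -1.09, in a list whose median signal was 45.1 in vivo and 49.1 in vitro. The in vivo samples are labelled pollen tube and passed a FLAG capture of ribosomes tagged under a pollen promoter. How much RNA of other flower cells or of the capture background the arrays hold was not tested.

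Genes of the pistil were mostly higher in vivo on the deposited scale. FER, the receptor kinase through which female cells receive the pollen tube, had 2157, 1734 and 1642 in vivo, against 9.75, 3.16 and 13.7 in vitro, a rise of 6.24 ± 0.34 (SE, adjusted p = 1.61e-07). CES, a basic helix-loop-helix factor of the transmitting tract, averaged 1574 in vivo and 74.5 in vitro, and NGA1, a factor of style development, 250.3 and 11.5. Of 10 measured pistil genes 6 rose and NGA4 fell, and 4 rose after quantile normalization, when INO and YAB3 lost their calls. The call of NGA4 was lost without in vitro array 3. Of 8 measured genes of the female gametophyte 4 rose (50.0%, against 39.4% of all probe sets) and none fell. After quantile normalization 3 rose and 2 fell, and with equal medians 3 and 3, with a median of 0.88 that turned to -0.15 with equal medians. DD46 lost its call under both scalings (adjusted p = 0.198 and 0.164). EC1.2, an egg cell peptide that activates sperm, had 232, 229 and 165 in vivo, against 9.32, 33.6 and 6.86 in vitro, and rose by 2.86 ± 0.39 (SE, adjusted p = 5.84e-05). EC1.5 averaged 155 in vivo, 10.2 in vitro and 18.9 in bud, and EC1.2 averaged 36.2 in bud. VDD, a transcription factor of the ovule, had 363, 267 and 478 in vivo and 9.74, 2.84 and 16.8 in vitro.

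Tapetum genes, which act in the anther and in coating pollen, missed the threshold in 4 of 5 cases, but with equal medians A9, SHT and AMS were called lower (adjusted p = 0.0075, 0.00691 and 0.0173). SHT averaged 14.6 in vivo and 54.6 in vitro, against 3202 on the bud arrays, and A9 (AT5G07230) averaged 14.8 in vivo, 63.1 in vitro and 3782 in bud. EMS1, a receptor kinase of early anther development, rose, with means of 665 in vivo and 115 in vitro. The list of nectary and floral volatile genes had 3 measured genes, of which the nectary gene SWEET9 rose. JMT, which makes methyl jasmonate, fell by 3.08 (adjusted p = 9.53e-06) with means of 850.2 in vivo and 7214 in vitro. BSMT1 was not called (adjusted p = 0.135), with means of 100 in vivo, 66.0 in vitro and 1068 in bud. Of 6 measured floral organ genes 2 rose and 2 fell, 33.3% each against 39.4% and 20.0% of all probe sets. The median log2 fold of that list was -0.11. Its largest rise was the petal growth factor BPEp, which averaged 1029.6 in vivo and 24.0 in vitro. RBE and UFO fell by 1.31 and 1.07 (adjusted p = 0.0406 and 0.0418). They averaged 31.6 and 9.06 in vivo, against 116 and 40.4 in vitro.

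Cysteine-rich peptides held the largest rise among probe sets with 1 named gene that passed the naming rule. THI2.1, an antimicrobial thionin, had 26748, 77139 and 77312 in vivo, against 493, 45.1 and 6.50 in vitro, and rose by 9.26 ± 0.91 (SE, adjusted p = 5.25e-06). It was bright on every in vivo array, and its in vitro signals ranged widely from array to array. LCR69 and LCR68, defensin-like peptides, averaged 19742 and 4687 in vivo, against 105 and 68.4 in vitro. LCR72, listed beside them as a defensin, was bright in both groups, with 12806, 29187 and 38843 in vivo and 73585, 86449.8 and 297369 in vitro. Its fall of 2.34 (adjusted p = 0.0105) was not called after quantile normalization, where the log2 fold was 0.05 (adjusted p = 0.95). Of 15 peptide genes 6 rose (40.0%, near the 39.4% of all probe sets) and 1 fell. After quantile normalization 4 rose and 4 fell, near the 26.3% and 30.1% of all probe sets on that scale. With equal medians 5 rose and 6 fell, and the median of 0.56 turned to -0.46.

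Enzymes of metabolism were divided. Of 29 berberine bridge and serine carboxypeptidase-like genes 17 rose and 4 fell (13 and 6 after quantile normalization), with scpl35 at 3026 in vivo and 33.8 in vitro and scpl38 at 2130.4 and 113100.0. In 85 cytochrome P450, glutathione transferase and UDP glycosyltransferase genes 26 rose and 11 fell (30.6% and 12.9%, below the 39.4% and 20.0% of all probe sets). After quantile normalization 19 rose and 20 fell, and with equal medians 20 and 35, with a median of 0.25 that turned to -0.11 under quantile normalization and -0.77 with equal medians. GSTU20 was the strongest rise of that list at 5.42. In the citrate cycle list 7 of 16 probe sets rose and 4 fell (43.75% and 25%, near the 39.4% and 20.0% of all probe sets). The median of -0.23 turned to 0.31 under quantile normalization. In that list cICDH, the cytosolic isocitrate dehydrogenase, averaged 7215 in vivo and 232 in vitro and rose by 4.92 (adjusted p = 1.57e-06), whereas IDH-III fell by 3.16 (adjusted p = 5.5e-06). Of the ATP-citrate lyase genes, which supply acetyl-CoA outside mitochondria, ACLA-2, ACLA-3 and ACLB-1 rose by 2.63, 2.91 and 3.42. ACLA-1 did not pass, with 4028, 4901 and 5669 in vivo and 3955, 6083 and 7476 in vitro.

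**Figure D4:**
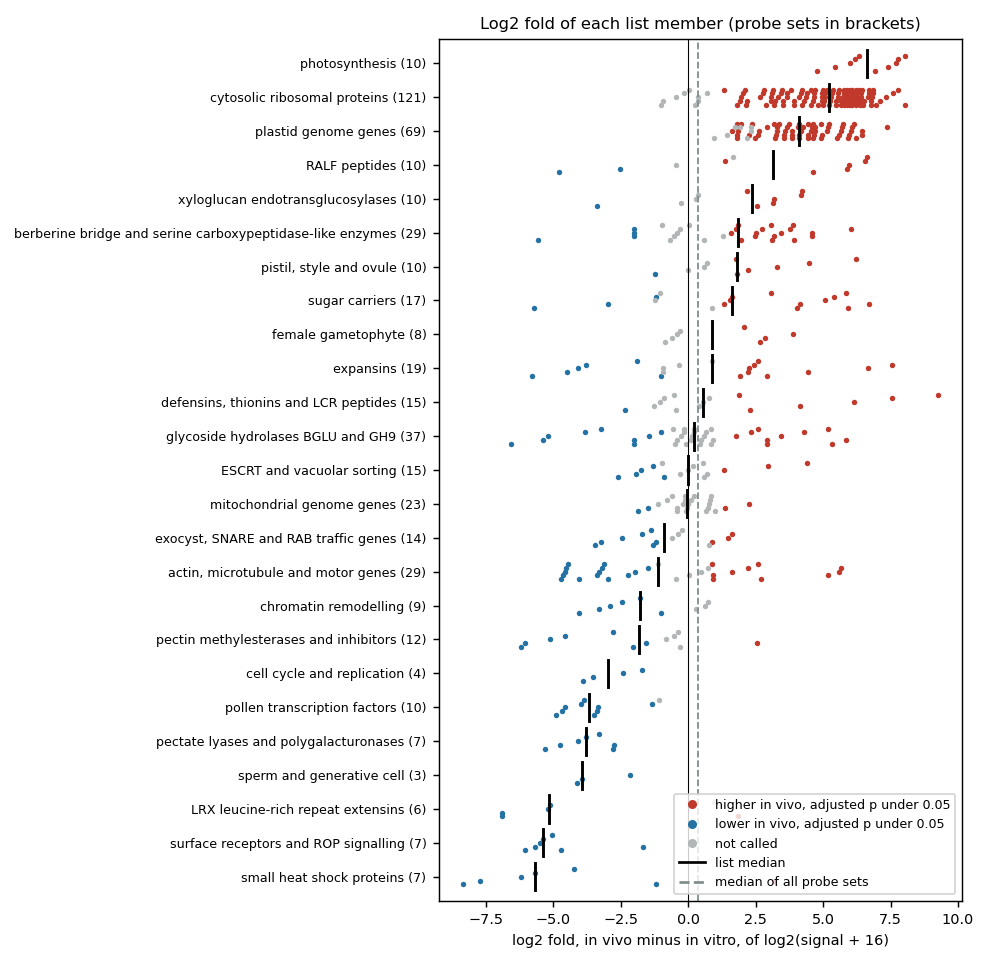
Log2 fold (in vivo minus in vitro) of each member of 25 gene lists, coloured by call, with the list median as a black bar and the median of all probe sets, 0.36, as a dashed line. Photosynthesis, at a median of 6.64, and small heat shock proteins, at -5.67, stand at the ends.

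Outside the lists, many of the largest differences by the naming rule were genes with a locus code only. AT3G19690 had 36.5, 2.75 and 49.3 in vivo, against 31393, 42314 and 43022 in vitro, and its log2 fold of -9.91 ± 0.53 (SE, adjusted p = 1.59e-07) was the lowest on the array. AT1G67640 had 56.8, 63.5 and 64.3 in vivo, against 28664, 30840.5 and 25602 in vitro, with replicates close together and a fall of 8.51 ± 0.30 (SE, adjusted p = 7.96e-08). AT3G15860, AT5G26100 and AT1G61080 fell by 8.28, 7.71 and 7.54. At the other end AT5G45950 had 11632, 19018 and 13115 in vivo, against 5.14, 7.08 and 18.9 in vitro, and rose by 9.12 ± 0.34 (SE, adjusted p = 7.96e-08). GILT averaged 40002 ± 16039.5 in vivo and 139 ± 195 in vitro (SD, n = 3 each). ARPN, a plantacyanin, a small copper protein of the pistil's transmitting tract, averaged 10003 ± 3736 in vivo (SD, n = 3), stayed under a signal of 100 on every in vitro array and rose by 8.24 (adjusted p = 7.04e-07).

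A set of bright genes differed little between flower and culture on the deposited scale. By a rule that asks for no call and a 95% interval of the log2 fold within 1 of 0, 587 probe sets with 1 named gene were eligible, and 782 probe sets exceeded a signal of 1000 on all 6 arrays. AT4G24380, the brightest by the lower of its 2 group means, had 12998, 14906 and 11774 in vivo and 9976, 11618 and 12156 in vitro, a log2 fold of 0.23 with an interval of -0.46 to 0.92. Y14, a core protein of the exon junction complex on spliced mRNA, had 2238, 2104 and 1932 in vivo and 1758, 2103 and 2777 in vitro, and an interval of -0.77 to 0.65. ACLA-1 had an interval of -0.97 to 0.52. These genes depend on the scale. Of the 12 named by the rule, 2 were called after quantile normalization and 9 with equal medians. AT4G24380 was higher after quantile normalization (log2 fold 1.79, adjusted p = 0.00135). With equal medians ACLA-1 (-1.25, adjusted p = 0.00641) and Y14 (-1.08, adjusted p = 0.0125) were lower.

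The 3 in vivo arrays differed among themselves in pollen tube genes. The median signal of the 7 receptor genes was 304, 267 and 749 on in vivo arrays 1, 2 and 3, and that of the 10 transcription factor genes was 115, 158 and 294. The pectate lyase and polygalacturonase list gave 3454, 3714 and 8025. Array 3 was the brightest of the 3 in each list, while photosynthesis genes, at 6281, 10537 and 9132, were brightest on array 2. On the in vitro arrays the same lists stood at 24279, 18093 and 14614 for receptors, 3496, 4257 and 3988 for transcription factors and 68.5, 70.2 and 63.4 for photosynthesis. The bud arrays had 185, 127 and 119 for receptors and 2327, 3867 and 3231 for tapetum genes.

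**Figure D5:**
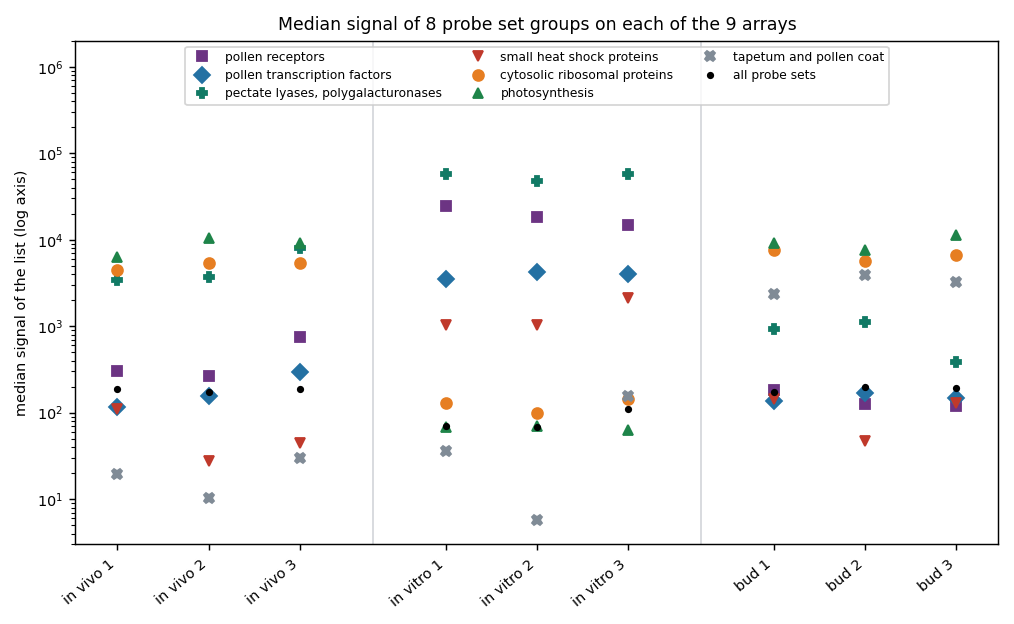
Median signal (log axis) of 7 gene lists and of all probe sets on each of the 9 arrays, grouped as in vivo, in vitro and bud. Pollen receptors lie at 304, 267 and 749 in vivo and 24279, 18093 and 14614 in vitro, and ribosomal protein genes at 4497, 5376 and 5349 in vivo and 129, 98.9 and 145 in vitro.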

How the data were processed

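Translatome RNA of 9 samples was measured on GeneChip arrays. The values are intensity signals that the authors deposited as a table of the whole series, made with MAS5 per the submitters' processing notes (no version is given in the sources used here). A trimmed mean (2% off each end) of every deposited column was about 500, a scale on which the 3 arrays of each group were compared. The table holds no detection calls, so a low signal is not an absence.

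Here log2(signal + 16) of the 22746 non-control probe sets was fitted with limma 3.58.1 in R 4.3.3 over all 9 arrays, with a mean for each group and no covariate. A call is a Benjamini-Hochberg adjusted p under 0.05. The offset of 16 shrinks the folds of dim genes. The labels state independent biological replicates. The number of arrays limits the precision.

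Genes were named from the platform annotation, updated by locus: 13513 probe sets had 1 gene, 503 several and 8730 were not listed, and 11885 carry a locus code only. Named genes are the 12 largest rises and the 12 largest falls among called probe sets whose groups do not overlap, up to 4 genes per list by size of the moderated statistic, and the 12 brightest genes level between groups. Other list members were named after their values were seen. The members and lists were chosen with earlier results of these data known. Of 46 lists, 6 and some loci were added after the annotation was seen, and 5 (arabinogalactan proteins, aquaporins, lipid transfer proteins, translation factors, respiratory chain subunits) had no named probe set. Set tests were not run.

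Alternatives were the offset, quantile normalization, equal array medians, the 6 compared arrays, a signal filter, trend, array weights, a replicate block and leaving out each array.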

Additional observations from a re-analysis of the deposited data

How the results depend on the processing

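With 18 alternatives, 13495 calls became 12833 under quantile normalization and 15419 with equal array medians. The count of probe sets lower in vivo was 6847 under quantile normalization, 9382 with equal medians and 2966 over only the probe sets above the median mean signal, against 4542. The median log2 fold of 0.36 reversed to -0.26 under quantile normalization and to -0.67 with equal medians, and was 1.71 over the brighter probe sets, which are fewer. Leaving out each of the 9 arrays in turn gave 12016 to 14045 calls, 8169 to 9545 higher, 3810 to 4656 lower, and medians of 0.33 to 0.48. The replicate block gave 13412 calls, 8900 higher and 4512 lower; deviations of same-numbered arrays correlated at 0.055, -0.020 and 0.021, so the numbers did not pair the arrays. Of the 186 named genes, 155 kept sign and call under every alternative that tested them, and the signal filter tested 164. Of the 186, 168 were called in the main fit, most of them chosen for large differences there, so this count says little about other genes. Signs of genes called on either scale turned for AT4G37830 (1.05, quantile normalization), AT5G43460 (-0.78, equal medians) and AT1G02305 (-0.93, equal medians), where the rescaling itself moves all genes. Signs of genes called on neither scale turned for 6 genes under quantile normalization and 4 with equal medians. Of the called probe sets, 1 turned to a call of the opposite sign under quantile normalization and 0 under the other alternatives. No detection calls were given, so what the background limits at low signal was not assessed.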

Other observations

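Genes of membrane protein traffic to the vacuole and of ubiquitin conjugation held pairs of paralogs with opposite differences. Among 15 genes of the ESCRT complexes, which sort membrane proteins into vesicles of late endosomes, 5 fell and 3 rose in vivo (33.3% and 20.0%, against 20.0% lower and 39.4% higher of all probe sets). VPS60.1 averaged 424 ± 64.5 in vivo and 2735 ± 697 in vitro (SD, n = 3 each) and fell by 2.62 in limma (adjusted p = 3.87e-05). VPS60.2 averaged 423 ± 91.8 in vivo and 42.6 ± 20.8 in vitro (SD, n = 3 each) and rose by 2.96 (adjusted p = 3.37e-05). VPS2.1 averaged 2164 ± 263 in vivo and 5405 ± 997 in vitro (SD, n = 3 each) and fell (adjusted p = 0.00544), whereas VPS2.2 rose by 4.40 (adjusted p = 6.93e-07). Of 25 ubiquitin conjugase and protease genes 9 rose and 4 fell (36.0% and 16%, near the 39.4% and 20.0% of all probe sets), and 8 and 11 after quantile normalization. UBC28, a ubiquitin conjugase, averaged 5919 in vivo and 28378 in vitro, and UBC29 averaged 1038 in vivo and 72.5 in vitro. The median log2 folds of 0.01 and 0.32 for these lists turned to -0.80 and -0.76 under quantile normalization.

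Of the glucan synthase list 6 of 8 measured genes rose and 2 fell. CSLC12 and CSLC6, of a family that makes the xyloglucan backbone, were the genes that fell. CSLC04 and CSLC5, of the same family, rose by 3.18 and 3.06 (adjusted p = 3.11e-05 and 1.78e-05). CSLC12 had 504, 152 and 503 in vivo, against 12670.0, 9574 and 2628 in vitro, and fell by 4.26 ± 0.61 (SE, adjusted p = 8.65e-05). CSLA01, of a family that makes mannan, had 1753, 1429 and 1872 in vivo, against 13.7, 14.5 and 143 in vitro, and rose by 5.01 ± 0.56 (SE, adjusted p = 1.39e-05). The groups did not overlap in either gene, as in 63.5% of all probe sets. Among 6 probe sets for SETH genes, named for their need in pollen germination, 4 fell. SETH3 averaged 2214 ± 379 in vivo and 15660.1 ± 5438 in vitro (SD, n = 3 each), a fall of 2.77 (adjusted p = 7.04e-05).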
